A study of Mus musculus with 4 samples.

Results

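The 35 type I interferon-stimulated genes described here were chosen by symbol, and all 35 were found by Ensembl identifier among the 53379 genes of the count table. All 35 passed the filter on low counts, which left 18422 genes, and every library held between 319 and 22963 counts of each. The cells were macrophages sorted from tumours of the MC38 model, a mouse colon carcinoma line, as positive for CD45, CD11b and F4/80, 21 days after implantation into C57BL/6J mice. One group of 2 mice was fed a high-fat diet and the other group of 2 mice a control diet, with 1 library per mouse and no other treatment or allele named in the labels. Values are CPM, counts divided by library sizes that were scaled by TMM, a trimmed mean of ratios that corrects for composition. A gene is called higher or lower in the high-fat diet at a Benjamini-Hochberg adjusted p below 0.05 over all genes tested, by edgeR's quasi-likelihood test with n = 2 per diet. The duration and composition of the diets and the age and sex of the mice were not given in the sources used here. The p-values measure the spread between these 4 mice alone.

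Type I interferons are secreted when cells sense foreign or misplaced nucleic acid. They bind the receptor chains IFNAR1 and IFNAR2, whose kinases JAK1 and TYK2 phosphorylate STAT factors. These join IRF9 into a complex that binds the interferon-stimulated response element in front of antiviral genes, many of which are also induced by IRF1 or by interferon gamma. In tumour-associated macrophages the programme is one of the recurrent expression states, and its products include RNA-binding proteins, RNA-degrading systems, nucleic acid sensors and brakes on the receptor.

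Libraries held 34148682 to 37159552 counts. The macrophage marker list, C1qa, Csf1r and Adgre1 among its 13 genes, summed to between 14497 and 17410 CPM. None of it was called by edgeR, and 3 of 13 had an unadjusted p below 0.05, where 31.3% of all genes tested did. DESeq2 called 1 higher, where 5.25% of its genes were. Neutrophil markers (7 genes) summed to 88.4 and 89.3 CPM on the high-fat diet, against 269 and 119 CPM on the control diet, with Ly6g at 0 counts in both high-fat-diet libraries, which allows up to 3 counts in each. Most of this sum was Csf3r (80.8 and 83 against 138 and 71.6 CPM, not called), and the median log2 fold change of the 7 was -4.02. Dendritic cell markers (7 genes) summed to 21.1 and 27.4 against 89.6 and 55.2 CPM, epithelial markers (5 genes) to 39.4 and 45.9 against 154 and 105 CPM, and fibroblast markers (6 genes) to 1981 and 1953 against 998 and 757 CPM. Most of the epithelial sum was Cdh1 (38.5 and 45.2 against 144 and 57 CPM, not called), and the median log2 fold change of the 5 was -6.48. T and NK cell markers (8 genes) summed to between 17.2 and 64.3 CPM, highest in control-diet mouse 1, and B cell markers (4 genes) to between 11 and 18.3 CPM, nearly all of it Cd79b. Within the lymphocyte lists edgeR called Cd4 higher (log2 fold change 2.93, adjusted p = 0.0113). It called Gzma (30 and 9 counts on the high-fat diet, 886 and 222 on the control diet, adjusted p = 0.0292) and Cd79a (-5.12, adjusted p = 0.0111) lower. In the other lists edgeR called 5 of 7 neutrophil, 2 of 7 dendritic cell and 4 of 5 epithelial markers lower, where 7.91% of all genes tested were. Of the 6 fibroblast markers it called 4 higher, where 2.61% of all genes tested were. In bulk RNA, fewer cells of a type and less RNA per cell cannot be told apart, and the part of these lists in the values below was not tested.

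The interferon-stimulated genes did not move as one block between the diets. The IFIT genes were about 2-fold higher in the high-fat-diet mean, Oasl1, Ifitm3 and Parp14 were lower, and most others overlapped between diets. By edgeR 1 of 35 was called higher, Ifit3b, where 2.61% of all genes tested were, and 0 were called lower, where 7.91% were. At an unadjusted p below 0.05 there were 7 higher and 3 lower, where 13.6% and 17.7% of all genes tested were. DESeq2 called 6 higher and 1 lower (5.25% and 9.11% of its genes), and limma-voom called 0 in either direction (2.16% and 6.86%). The median log2 fold change of the 35 was 0.10, beside 0.00 over all genes tested, with 22 positive and 13 negative. In 10 genes both high-fat-diet libraries lay above both control-diet libraries, where 32.2% of all genes tested did, and in 4 both lay below, where 31.6% did. The share of members called higher by edgeR and the share separated higher lay near these backgrounds, and the shares called or separated lower lay below them. By DESeq2 the share called higher lay above its background, and the share called lower below it.

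**Figure D1:**
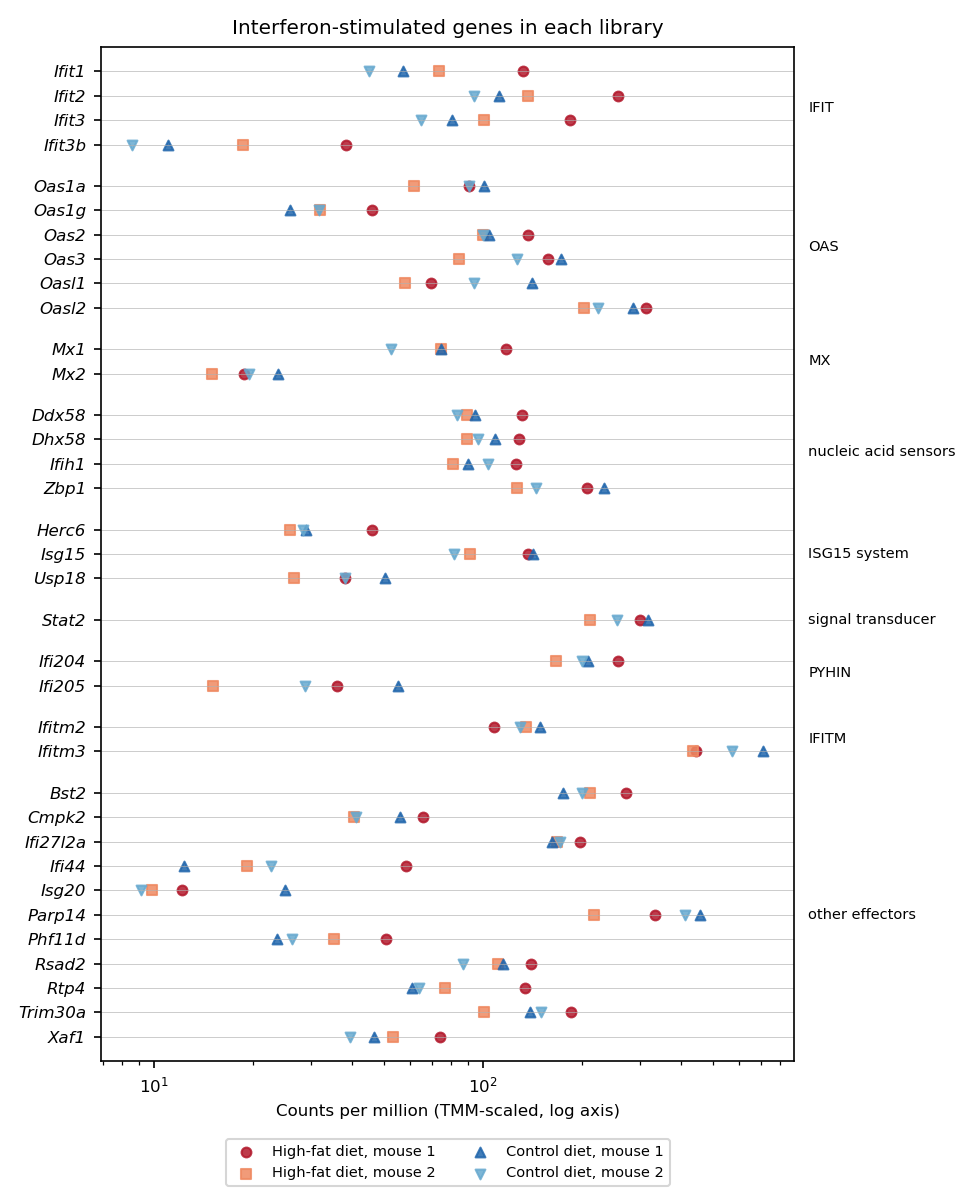
Level of each of the 35 genes in each library, as TMM-scaled CPM on a log axis, with the genes grouped by family on the right. Each point is 1 mouse, and high-fat-diet mouse 1 (dark red circles) is the highest library in 22 of the 35 genes.

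The IFIT family includes proteins that bind viral RNA that lacks the cap methylation of the host, and its genes sit side by side on chromosome 19 on the plus strand. Ifit2 spans 34550694 to 34576419 (GRCm38), Ifit3 follows 7.11 kb on at 34583531 to 34588731, Ifit3b lies at 34607970 to 34613401 and Ifit1 at 34640871 to 34650009. To show what lies in front of these genes and of members that behaved otherwise, stretches of 100 bases were taken from RefSeq promoter windows (250 bases before to 50 after the annotated start, GRCm38.p6), in the direction of transcription. Capitals mark matches to GAAA, any 2 bases and GAAA again, or to TTTC, any 2 bases and TTTC where the match is on the other strand, a simple form of the interferon-stimulated response element. Ifit1 (chr19:34640749-34640848, plus strand), Ifit3 (chr19:34583345-34583444, plus) and Ifit3b (chr19:34607741-34607840, plus) read as follows, each from the 5' flank of its gene.
Ifit1: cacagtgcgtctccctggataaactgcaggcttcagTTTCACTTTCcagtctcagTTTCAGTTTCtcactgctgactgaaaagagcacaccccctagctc
Ifit3: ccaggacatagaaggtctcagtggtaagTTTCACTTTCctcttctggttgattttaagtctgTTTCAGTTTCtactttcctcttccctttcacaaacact
Ifit3b: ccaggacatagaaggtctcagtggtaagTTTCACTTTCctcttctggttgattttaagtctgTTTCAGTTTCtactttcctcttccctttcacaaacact
All of these hold the same pair of 10-letter matches, and over their whole windows Ifit3 and Ifit3b were identical at 258 of 260 aligned bases (99.2%).

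Ifit3b, a close copy of Ifit3, was the member that was called. It had 38.3 and 18.6 CPM in high-fat-diet mice 1 and 2, against 11 and 8.58 CPM in control-diet mice 1 and 2. The high-fat-diet libraries lay above both control-diet libraries, but they differed from each other 2.07-fold. The log2 fold change was 1.54 (SE 0.36, 2.91-fold, edgeR adjusted p = 0.0473). It moved to 0.94 (adjusted p = 0.195) without high-fat-diet mouse 1, and the call also ended when either control-diet mouse was left out (adjusted p = 0.0545 and 0.0989). Only without high-fat-diet mouse 2 did it hold (log2 fold change 1.99, adjusted p = 0.0170).

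Ifit3 had 183 and 101 CPM in high-fat-diet mice 1 and 2, against 80.1 and 64.6 CPM in control-diet mice 1 and 2 (log2 fold change 0.97, SE 0.29, adjusted p = 0.0848). Ifit1, which recognises RNA with an immature cap, had 132 and 73.5 against 56.9 and 44.9 CPM (log2 fold change 1.01, SE 0.29, adjusted p = 0.0767). Ifit2, a partner of Ifit1 and Ifit3, had 258 and 137 against 112 and 93.5 CPM (log2 fold change 0.95, SE 0.30, adjusted p = 0.0950). In each of these genes high-fat-diet mouse 1 stood well above the other libraries, and high-fat-diet mouse 2 lay closer to control-diet mouse 1 than to its own pair. None of these 3 was called by edgeR, and all 3 were called by DESeq2 (adjusted p from 0.00661 to 0.0128). The labels do not pair the mice across diets, so a block on the mouse number is arbitrary. With the mouse number as a block in edgeR all 3 were called (adjusted p from 0.0228 to 0.0382). With the mouse numbers crossed between the diets none of the 3 was called (edgeR adjusted p from 0.127 to 0.136), nor was Ifit3b (adjusted p = 0.0812). Without high-fat-diet mouse 1 their log2 fold changes fell to between 0.44 and 0.55, and without high-fat-diet mouse 2 they were between 1.35 and 1.39.

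The counts of Ifit3 and Ifit3b are uncertain as a pair, since 51.2% of the distinct 50-base stretches of Ifit3 transcripts and 45% of those of Ifit3b also occur in transcripts of the other gene or, for a few of Ifit3b, elsewhere. At 100 bases the shares were 31.7 and 27.4%. How reads matching several places were counted is not given in the sources used here. Counts of Ifit3b were 20.9 and 18.4% of those of Ifit3 in high-fat-diet mice 1 and 2, and 13.7 and 13.3% in control-diet mice 1 and 2. Summed, the pair had 221 and 119 CPM against 91.1 and 73.2 CPM, a log2 ratio of the diet means of 1.05. Most counts of this sum were those of Ifit3, so it says little about Ifit3b alone. The part of the split between the copies in the larger log2 fold change of Ifit3b (1.54, against 0.97 in Ifit3) was not tested. In Ifit2 no 50-base stretch was shared with another gene's transcripts.

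**Figure D2:**
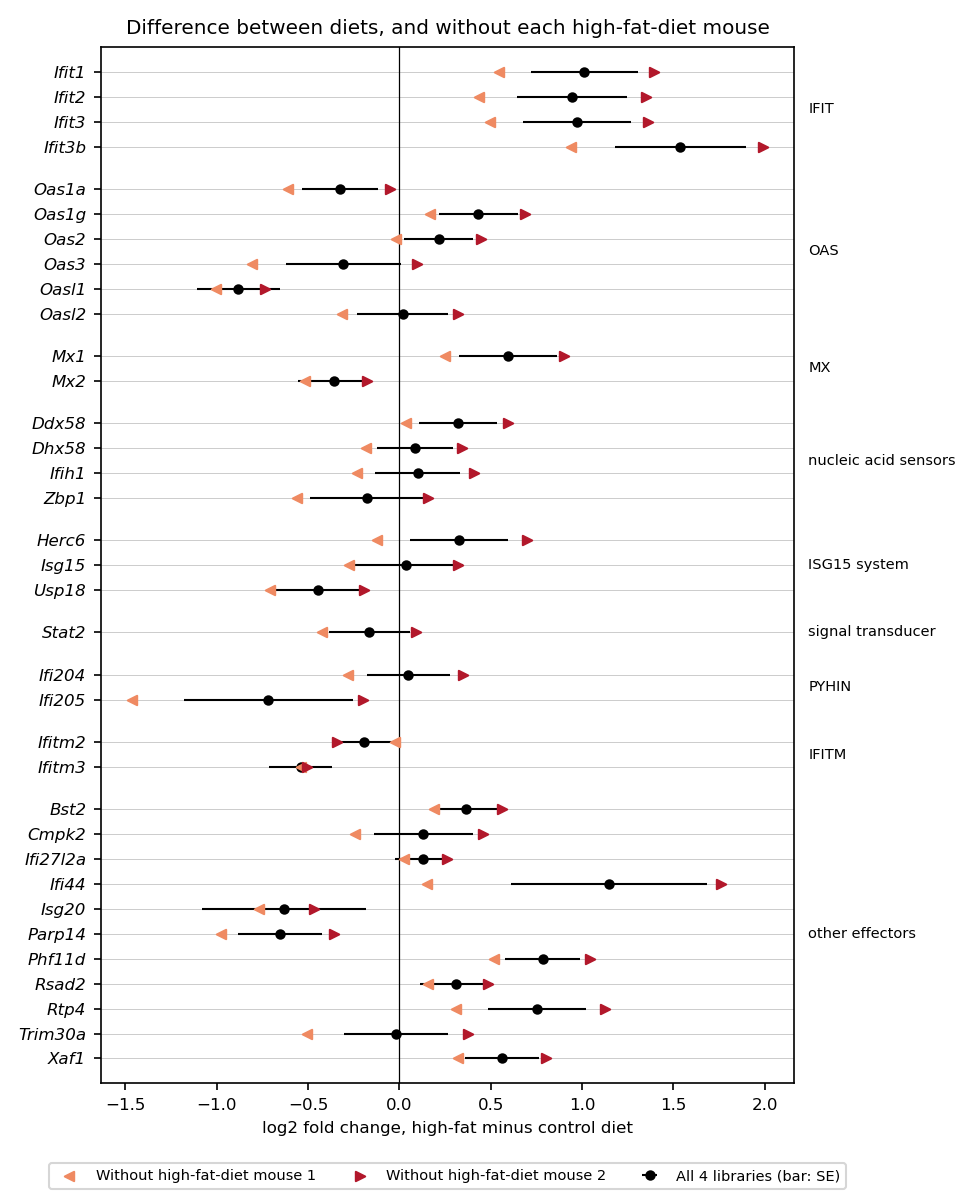
log2 fold change of each gene, high-fat minus control diet, with all 4 libraries (black, bars are 1 SE from edgeR) and without either high-fat-diet mouse (triangles). The 4 IFIT genes stay above 0 in all of these fits, while genes such as Oasl2, Isg15 and Trim30a lie on either side of 0 depending on which mouse is left out.

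Promoter windows with and without a match were found both inside and outside the IFIT family. RefSeq windows were found for 25 of the 35 genes, and 16 of the 25 (64%) held the letters on either strand, where 3.99% of all 27025 genes with a window did. The windows of Isg15, Oas1a and Oas1g hold overlapping matches, and those of Ifit2 and Oasl1 hold none. The stretches shown are Isg15 (chr4:156200836-156200935, minus strand), Oas1a (chr5:120907526-120907625, minus), Oas1g (chr5:120887614-120887713, minus), Ifit2 (chr19:34550594-34550693, plus) and Oasl1 (chr5:114923140-114923239, plus), again ending at or before the annotated start.
Isg15: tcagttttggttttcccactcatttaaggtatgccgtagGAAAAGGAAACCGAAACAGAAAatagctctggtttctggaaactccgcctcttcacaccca
Oas1a: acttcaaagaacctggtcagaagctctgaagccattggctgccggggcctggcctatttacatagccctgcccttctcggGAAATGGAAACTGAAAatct
Oas1g: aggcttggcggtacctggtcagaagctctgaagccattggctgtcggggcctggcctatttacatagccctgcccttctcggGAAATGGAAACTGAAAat
Ifit2: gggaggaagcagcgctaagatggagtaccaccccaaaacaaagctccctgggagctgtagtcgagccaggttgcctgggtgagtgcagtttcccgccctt
Oasl1: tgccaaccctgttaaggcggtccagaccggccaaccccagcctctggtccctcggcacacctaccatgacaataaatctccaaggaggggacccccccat
A missing match says only that these letters are not in that window. Of the IFIT genes, Ifit2 had no match and the other members of the family had 2 each.

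**Figure D3:**
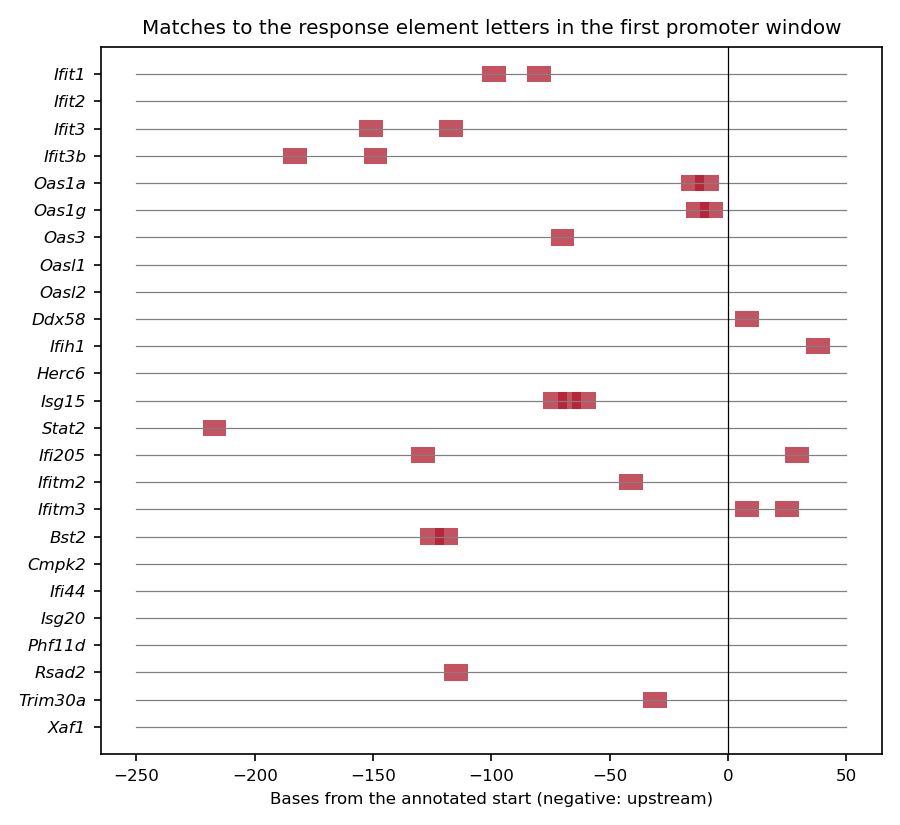
Position of the matches to the response element letters (10 bases each, either strand) in the first RefSeq promoter window of the 25 genes that have one, in bases from the annotated start. Ifit3 and Ifit3b hold 2 matches at the same spacing, Isg15 holds 3 overlapping matches, and Ifit2, Oasl1 and Oasl2 hold none.

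The OAS family includes enzymes that make the signal that activates the RNA-cutting enzyme RNase L, and Oasl1 and Oasl2 are its OAS-like members. Its members went in both directions. Oasl1, which in mice restrains translation of Irf7, lies on chromosome 5 from 114923240 to 114937915, 11 kb past the 3' end of Oasl2 on the same strand. It had 69.6 and 57.9 CPM in high-fat-diet mice 1 and 2, against 141 and 94 CPM in control-diet mice 1 and 2. Both high-fat-diet libraries lay below both control-diet libraries (log2 fold change -0.88, SE 0.23, edgeR adjusted p = 0.0593). DESeq2 called it lower (adjusted p = 0.008), as did the fit with the mouse number as a block (adjusted p = 0.029). With the mouse numbers crossed it was not called (edgeR adjusted p = 0.0794). The log2 fold changes without 1 library ran from -1.14 to -0.56. Its neighbour Oasl2, the more abundant of the pair, had 313 and 202 against 285 and 223 CPM, and its libraries overlapped (log2 fold change 0.02, SE 0.25, adjusted p = 0.969).

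Oas3, which senses long double-stranded RNA, had 157 and 84.3 against 172 and 127 CPM (log2 fold change -0.31, adjusted p = 0.543). Oas2 had 137 and 99.5 against 104 and 99.98 CPM, so that 3 of the 4 libraries were nearly alike and high-fat-diet mouse 1 was above them (log2 fold change 0.21, adjusted p = 0.472). Oas1a had 90.6 and 61.7 against 101 and 90.2 CPM (log2 fold change -0.32, adjusted p = 0.332), with high-fat-diet mouse 2 the low library. Oas1g had 45.7 and 31.9 against 25.8 and 31.8 CPM (log2 fold change 0.43, adjusted p = 0.226). Oas1a and Oas1g are close copies that share 57.6 and 45.7% of their 50-base stretches with other genes, mainly each other. Their sum was 136 and 93.7 against 126 and 122 CPM, a log2 ratio of the diet means of -0.11, so the opposite signs of the pair could depend on how shared reads were split.

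The MX genes encode dynamin-like GTPases that trap viral particles. The Mx1 allele of C57BL/6 mice is known to carry a deletion that destroys the protein, and the annotation lists Mx2 as a polymorphic pseudogene, so these are transcript levels only. Mx1 had 117 and 74.7 CPM against 74.4 and 52.6 CPM (log2 fold change 0.59, SE 0.27, adjusted p = 0.187), with high-fat-diet mouse 2 level with control-diet mouse 1. Mx2 had 18.8 and 14.9 against 23.8 and 19.4 CPM (log2 fold change -0.36, adjusted p = 0.267).

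Among the nucleic acid sensors none was called, and at an unadjusted p below 0.05 or by DESeq2 and limma-voom there were 0 as well. Ddx58, which encodes the RNA sensor RIG-I, had 132 and 89.5 against 94.1 and 82.9 CPM (log2 fold change 0.32, adjusted p = 0.343). Ifih1, which encodes MDA5, a sensor of long double-stranded RNA, had 126 and 81 against 89.6 and 103 CPM (0.10, adjusted p = 0.796). Dhx58, which encodes LGP2, the cofactor of both, had 128 and 89.3 against 109 and 96.2 CPM (0.09, adjusted p = 0.807). Zbp1, a sensor of left-handed nucleic acid that can start necroptosis, had 207 and 126 against 233 and 145 CPM (-0.18, adjusted p = 0.73). In all 4 sensors the spread between the high-fat-diet mice was larger than the difference between the diets.

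ISG15 is a ubiquitin-like protein, Herc6 the ligase that attaches it in mice, and Usp18 the protease that removes it and also blocks the receptor. Isg15 had 137 and 91 against 142 and 81.2 CPM, with mouse 1 high and mouse 2 low in both diets (log2 fold change 0.03, SE 0.31, adjusted p = 0.952). Usp18 had 38 and 26.7 against 50.2 and 37.9 CPM (-0.45, SE 0.23, adjusted p = 0.234). Herc6 had 45.9 and 25.9 against 29 and 28.3 CPM (0.33, adjusted p = 0.444). Stat2, the signal transducer of the list, had 300.3 and 211 against 318 and 255 CPM (-0.16, adjusted p = 0.646).

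Of the PYHIN proteins, which bind DNA, Ifi204 had 257 and 166 against 208 and 200.3 CPM (log2 fold change 0.05, adjusted p = 0.901). Ifi205 had 36 and 15 against 55.1 and 28.7 CPM (-0.72, SE 0.46, adjusted p = 0.331). With the mouse number as a block it was called lower (-0.77, adjusted p = 0.0459), and with the numbers crossed it was not (adjusted p = 0.42). The IFITM proteins sit in membranes and block virus entry. Ifitm3 had 444 and 435 against 708 and 571 CPM, below in both high-fat-diet mice, which were nearly equal to each other (-0.54, SE 0.17, adjusted p = 0.0941). Ifitm2 had 108 and 135 against 149 and 129 CPM (-0.20, adjusted p = 0.476), and 48.5% of its 50-base stretches are shared with other genes. Ifitm2 was the only member in which high-fat-diet mouse 2 was above high-fat-diet mouse 1.

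The remaining 11 effectors ran from a log2 fold change of -0.66 to 1.15, with 8 positive. Phf11d, a PHD-finger gene of a mouse cluster on chromosome 14, had 50.6 and 35.2 against 23.6 and 26.2 CPM (0.78, SE 0.21, adjusted p = 0.0620), and DESeq2 called it higher (adjusted p = 0.0175). Rtp4, a chaperone of G-protein receptors that also binds RNA, had 134 and 76.5 against 60.9 and 63.9 CPM (0.75, SE 0.27, adjusted p = 0.118), and DESeq2 called it higher too (adjusted p = 0.0433). Xaf1, a binding partner of the apoptosis inhibitor XIAP, had 73.8 and 53.1 against 46.6 and 39.4 CPM (0.56, SE 0.20, adjusted p = 0.122). In these 3 genes the diets did not overlap.

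Ifi44 had the second-largest log2 fold change of the 35, 1.15, but with an SE of 0.54 (adjusted p = 0.199). Its values were 58.3 and 19.2 against 12.3 and 22.6 CPM, so that only high-fat-diet mouse 1 stood apart, and without that mouse the value was 0.15. Parp14, a mono-ADP-ribosyltransferase, had 332 and 217 against 455 and 411 CPM (-0.66, SE 0.23, adjusted p = 0.116), lower in both high-fat-diet mice. Isg20, an RNA exonuclease, had 12.1 and 9.85 against 24.9 and 9.09 CPM (-0.63, SE 0.45, adjusted p = 0.378), where control-diet mouse 1 alone stood apart.

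Bst2, the tether that holds budding virus at the membrane, had 272 and 211 against 175 and 200.02 CPM (0.37, SE 0.18, adjusted p = 0.222). Rsad2, which encodes viperin, and its neighbour Cmpk2, whose product supplies the substrate of viperin, lie 12.8 kb apart on chromosome 12. Rsad2 had 139 and 111 against 115 and 87.1 CPM (0.31, adjusted p = 0.328), and Cmpk2 had 65.7 and 40.4 against 56 and 41 CPM (0.13, adjusted p = 0.774). Ifi27l2a had 197 and 167 against 162 and 171 CPM (0.13, adjusted p = 0.601), and Trim30a 185 and 101 against 139 and 150.3 CPM (-0.02, adjusted p = 0.972).

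Compared per transcript length, as CPM per kilobase of annotated exon averaged over the libraries, Ifitm3 was the most abundant member at 796, followed by Ifi27l2a at 376, Bst2 at 237 and Ifitm2 at 199. Isg15 followed at 149, and Herc6 was the lowest at 3.47. On this scale Ifitm3 ran from 642 to 1044 over the 4 libraries and Ifi27l2a from 350.1 to 425, so these neighbours in the order did not overlap. Bst2 ran from 193 to 301, Ifitm2 from 165 to 227 and Isg15 from 107 to 187, so each of these overlapped the next.

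Most of the 35 genes, 23 of them, differed more between the high-fat-diet mice than between the diets, and the other 12, all 4 IFIT genes included, did not. High-fat-diet mouse 1 was above mouse 2 in 34 of 35, where it was in 51.8% of all genes tested, and it was the highest of the 4 libraries in 22 of 35 (28.6% of all genes tested). High-fat-diet mouse 2 was the lowest library in 18 of 35 (21% of all genes tested). The median log2 ratio of mouse 1 over mouse 2 was 0.59 in the members and 0.01 over all genes tested. It exceeded 0.5 in 25 of 35 members, where 5.25% of all genes tested did so. Over all genes tested, 26.5% had a larger log2 ratio between the high-fat-diet mice than log2 fold change between the diets.

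Between the control-diet mice the shift had the same sign and was smaller, with mouse 1 above mouse 2 in 27 of 35 (49.4% of all genes tested), a median log2 ratio of 0.25 beside -0.01, and 5 of 35 above 0.5 (10.3% of all genes tested). The largest ratios between high-fat-diet mice were those of Ifi44 (1.58), Ifi205 (1.23) and Ifit3b (1.03), all on the log2 scale. Between control-diet mice they were those of Isg20 (1.41), Ifi205 (0.93) and, with mouse 2 higher, Ifi44 (-0.86). The monocyte markers moved with these values. All 5, Ly6c2, Ccr2, Plac8, Chil3 and Vcan, were higher in mouse 1 than in mouse 2 of each diet, and they summed to 982 and 574 CPM on the high-fat diet, against 1321 and 564 CPM on the control diet. Their median log2 ratio was 0.76 on the high-fat diet and 1.90 on the control diet, the reverse order of that in the interferon-stimulated genes. Their part in the difference was not tested. The macrophage marker list had median ratios of -0.03 and -0.10. In the high-fat and control diets mouse 1 was above mouse 2 in 6 and 8 of 8 T and NK cell markers. The same held for 4 and 6 of 7 neutrophil, 2 and 5 of 7 dendritic cell and 2 and 5 of 6 fibroblast markers. It held for 2 and 1 of 5 epithelial and 0 and 1 of 3 tested B cell markers. Of the 6 tested plasmacytoid dendritic cell markers it held for 6 and 4. With 2 mice per diet, a difference between 2 mice has no replicate of its own and no test was made of it.

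**Figure D4:**
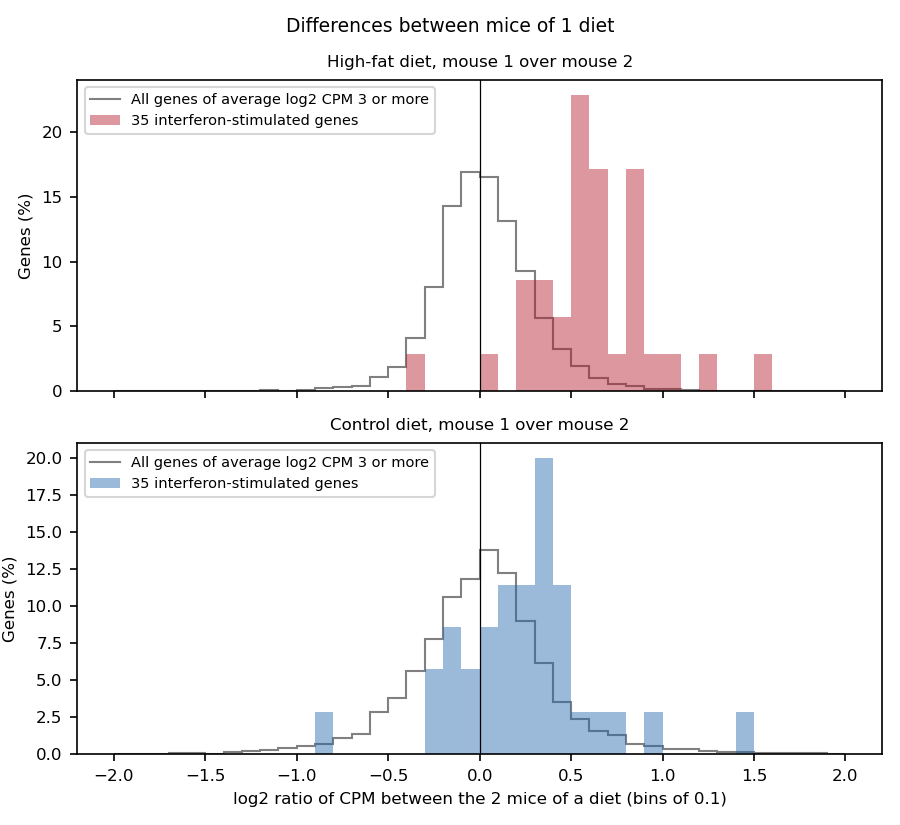
log2 ratio of mouse 1 over mouse 2 within the high-fat diet (top) and within the control diet (bottom), as the percentage of genes in bins of 0.1, for the 35 interferon-stimulated genes (filled) and all 10312 genes of average log2 CPM of 3 or more (grey line). Nearly all of the filled bins of the top panel lie to the right of 0, with a median of 0.59, against 0.25 in the bottom panel.

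The median of the list fell without high-fat-diet mouse 1 and rose without mouse 2, which restates the ratios between these mice given above. Without high-fat-diet mouse 1 the median log2 fold change of the 35 was -0.18 and edgeR called 0 in either direction, where 0.359% of all genes tested were called higher and 1.52% lower. Without high-fat-diet mouse 2 it was 0.38, and 5 were called higher, the 4 IFIT genes and Rtp4, where 0.59% of all genes tested were, and 0 lower, where 1.57% were. Without control-diet mouse 1 the median was 0.25 and 0 were called, where 4.4% were called higher and 8.65% lower. Without control-diet mouse 2 it was 0.04, and Phf11d was called higher and Ifitm3, Isg20 and Oasl1 lower, where 10.1% and 13.2% of all genes tested were. In such fits the diet with 1 library is assumed to vary like the other diet's pair. With all libraries, RLE scaling called the same gene as TMM (2.4% of all genes tested called higher, 8.05% lower), and upper-quartile scaling added Oasl1 as lower (2.48% and 8.6%). With no filter Ifit3b, Phf11d and Xaf1 were called higher and Oasl1 and Parp14 lower (5.16% and 7.42%). With the mouse number as a block the 4 IFIT genes were called higher and Ifi205 and Oasl1 lower (3.08% and 8.04%), and with the numbers crossed, a fit chosen after seeing the data, Ifi44 and Phf11d were called higher (4.93% and 8.39%). The sign of 22 of the 35 genes was the same in every fit made, the 4 IFIT genes, Oasl1, Ifitm3 and Parp14 among them.

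Upstream of these genes, type I interferon transcripts were close to absent. Ifnb1, which encodes interferon beta, had 32 and 56 counts on the high-fat diet against 9 and 11 counts on the control diet, or 0.855 and 1.46 against 0.277 and 0.296 CPM (log2 fold change 2.00, SE 0.49, edgeR adjusted p = 0.054). It was thus 4-fold higher on few counts and short of the threshold, which it passed with no filter (adjusted p = 0.013) and on leaving out mouse 2 of the control diet (adjusted p = 0.0406). Its order between the high-fat-diet mice was the opposite of that of the IFIT genes. The other 17 type I interferon genes together held 9 and 9 against 13 and 12 counts, and none passed the filter. Siglech, a marker of plasmacytoid dendritic cells, which specialise in making these interferons, had 0.294 and 0.261 against 0.832 and 0.0807 CPM, and the 7 markers of these cells summed to between 96.7 and 128 CPM, nearly all of it Tcf4, which other cells express. Of the 6 tested markers of these cells edgeR called 1 lower, Ly6d, where 7.91% of all genes tested were, and 0 higher, where 2.61% were. Ly6d had 3 and 1 counts on the high-fat diet against 27 and 41 counts on the control diet (log2 fold change -4.11, SE 0.65, adjusted p = 0.0224). Ccr9, the chemokine receptor among them, had 20 and 15 against 48 and 47 counts (-1.56, SE 0.41, adjusted p = 0.0613). Cox6a2 (7.24 and 6.57 against 5.61 and 3.20 CPM, log2 fold change 0.65) and Tcf4 (0.24) went the other way. In both, the high-fat-diet libraries lay above both control-diet libraries. The part of these markers in the interferon values was not tested.

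In the receptor and its signalling chain edgeR called 0 of the 6 genes described, and all 6 had a negative log2 fold change. In 5 of the 6 both high-fat-diet libraries lay below both control-diet libraries, where 31.6% of all genes tested did. At an unadjusted p below 0.05 there were 3 lower and 0 higher (17.7% and 13.6% of all genes tested), DESeq2 called 1 lower, Tyk2, where 9.11% were, and limma-voom called 0. Tyk2 had 115 and 113 against 187 and 156 CPM (log2 fold change -0.59, SE 0.15, edgeR adjusted p = 0.0616). Ifnar2 had 91.6 and 96.3 against 131 and 129 CPM (-0.47, SE 0.14, adjusted p = 0.0784), and Ifnar1 185 and 196 against 227 and 212 CPM (-0.20, adjusted p = 0.371). Irf9 had 106 and 94.2 against 137 and 142 CPM (-0.48, SE 0.14, adjusted p = 0.0835). In Tyk2, Ifnar1, Ifnar2 and Irf9 the high-fat-diet mice were close to each other, and the median log2 ratio of mouse 1 over mouse 2 in the 6 genes was 0.06, beside 0.59 in the 35 members, with Stat2 in both lists.

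Of 17 tested genes that induce interferon, edgeR called 0, where 2.61% of all genes tested were called higher and 7.91% lower. There were 1 higher and 3 lower at an unadjusted p below 0.05, where 13.6% and 17.7% of all genes tested were. DESeq2 called 0 (5.25% of its genes higher, 9.11% lower), and limma-voom called 0 (2.16% and 6.86%). Irf7, the factor that amplifies interferon production, had 564 and 346 against 510 and 392 CPM (log2 fold change 0.01, adjusted p = 0.978). Among the 10 tested negative regulators Socs1, an inhibitor of Janus kinases, fell from 217 and 107 CPM in the control-diet to 35.1 and 28.8 CPM in the high-fat-diet libraries (-2.34, SE 0.34, adjusted p = 0.0191). It was the only one of the 10 called by edgeR and by limma-voom, where 7.91% and 6.86% of all genes tested were called lower. DESeq2 called 3 of the 10 lower, where 9.11% of its genes were. A negative log2 fold change was found in 9 of the 10, and in 9144 of all 18422 genes tested. The call of Socs1 ended without either high-fat-diet mouse (log2 fold change -2.47 without mouse 1, -2.19 without mouse 2).

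**Figure D5:**
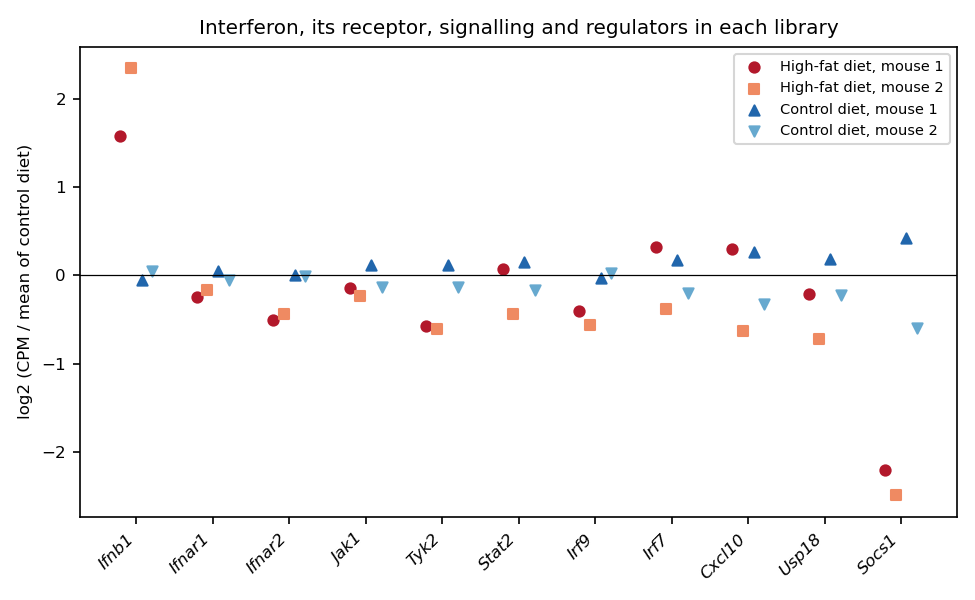
CPM of the interferon beta gene, the receptor chains, the signalling genes, 2 further interferon-induced genes (Irf7, Cxcl10) and the regulators Usp18 and Socs1 in each library, as log2 of the ratio to the mean of the control-diet libraries. Ifnb1 lies above 0 and Socs1 below -2 in both high-fat-diet mice, while Irf7 and Cxcl10 split by mouse.

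A wider list of 74 tested interferon-stimulated genes outside the 35 had a median log2 fold change of -0.02, with 4 genes called lower and 0 higher by edgeR, where 7.91% and 2.61% of all genes tested were. At an unadjusted p below 0.05 there were 11 lower and 4 higher, where 17.7% and 13.6% of all genes tested were. DESeq2 called 6 lower and 0 higher (9.11% and 5.25% of its genes), and limma-voom 3 lower and 0 higher (6.86% and 2.16%). Trim25, a ubiquitin ligase acting on RIG-I, fell from 408 and 318 to 166 and 168 CPM (-1.12, SE 0.18, adjusted p = 0.0219), and Helz2, a nuclear receptor coactivator, from 475 and 352 to 193 and 172 CPM (-1.18, SE 0.20, adjusted p = 0.0247). Ifitm1, a further membrane protein of the IFITM family, fell from 99.9994 and 89.1 to 27.4 and 50.4 CPM (-1.28, SE 0.29, adjusted p = 0.0439). Ifitm6, of the same family, fell (-3.67, SE 0.78, adjusted p = 0.0395) from 33.3 and 6.21 CPM to 1.47 and 1.62 CPM, with the control-diet mice far apart. The call of Ifitm6 ended with all libraries kept, with no filter (adjusted p = 0.29), by limma-voom (adjusted p = 0.102) and with the mouse numbers crossed (adjusted p = 0.0528). Calls of Trim25, Helz2 and Ifitm6 ended without either high-fat-diet mouse. Without mouse 1 and without mouse 2 the log2 fold changes were -1.09 and -1.10 (Trim25), -1.24 and -1.08 (Helz2), and -3.59 and -3.73 (Ifitm6). The call of Ifitm1 ended on leaving out mouse 1 of the high-fat diet (log2 fold change -0.89) or of the control diet (-1.19). In this list, too, high-fat-diet mouse 1 was above mouse 2 in 71 of 74, with a median log2 ratio of 0.51. Cxcl10, a chemokine induced by both types of interferon, had 457 and 240 against 447 and 298 CPM (-0.09, adjusted p = 0.875).

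Genes that lean towards interferon gamma lay lower than the 35. Of 20 such genes edgeR called 4 lower, Socs1, Irf1, Cd274 and Batf2, where 7.91% of all genes tested were, and 0 higher. At an unadjusted p below 0.05 there were 8 lower (17.7% of all genes tested), DESeq2 called 8 lower (9.11% of its genes) and limma-voom 4 (6.86%), each with 0 higher. Their median log2 fold change was -0.64, beside 0.10 in the type I list, and 10 of the 20 lay below in both high-fat-diet mice, where 31.6% of all genes tested did. The difference between the lists was not tested. Their median log2 ratio between the mice of a diet was 0.79 in the high-fat and 0.53 in the control diet, of the same sign as in the type I list. Irf1, which encodes an activator of both sets, fell from 925 and 649 CPM to 337 and 254 CPM (-1.41, SE 0.24, adjusted p = 0.0261). Leaving out mouse 2 of the high-fat diet ended its call (log2 fold change -1.20). The gene of PD-L1, an inhibitory ligand of T cells, is Cd274, and it fell from 444 and 302 to 156 and 175 CPM (-1.17, SE 0.22, adjusted p = 0.0313). Batf2, a transcription factor of macrophage activation, fell from 94.9 and 57.1 to 32 and 27.1 CPM (-1.36, SE 0.26, adjusted p = 0.0326). With all libraries kept and the mouse numbers crossed, the call of Batf2 ended (edgeR adjusted p = 0.0511). Cd274 and Batf2 also lost their calls on omitting mouse 1 or mouse 2 of the high-fat diet. Without mouse 1 and without mouse 2 the log2 fold changes were -1.07 and -1.24 in Cd274, and -1.47 and -1.23 in Batf2. As given above, these fits called a smaller share of all genes tested.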

How the data were processed

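RNA of sorted tumour macrophages was measured in 4 libraries, 2 per diet, from polyA RNA with a TruSeq Stranded mRNA kit, per the labels' protocols. The deposited values are counts, whole numbers of reads per Ensembl gene that the authors had not normalised, for 53379 identifiers. The builds GRCm38 and mm10 stand in the submitters' processing notes, which also list DESeq2 1.24.0, BWA 0.7.12, FastQC 0.11.5 and cutadapt 1.15. What each tool did, how reads were counted and by which strand setting and annotation release was not given in the sources used here. Titles name separate mice. The members and gene lists were chosen with earlier results of these data known. Members to be given in full were those called, the 8 of smallest p in each direction, the 4 most abundant per length and the IFIT and OAS families. Values of the other members were added. From the pathway lists the genes to be named were those called, up to 8 a list, and Irf7, Irf9, Ifnar1, Ifnar2, Ifnb1 and Cxcl10. Some other genes of the pathway and marker lists are not reported here and were left out of the counts over those lists.

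Genes were filtered with filterByExpr (minimum count 10, minimum total 15), scaled by TMM and tested with edgeR 4.0.16 (robust glmQLFit and glmQLFTest, diet as the only term, R 4.3.3). The SE is the log2 fold change divided by the square root of F. Ratios between mice used log2(CPM + 0.5). Alternatives were RLE and upper-quartile scaling, no filter, DESeq2 1.42.0, limma-voom (limma 3.58.1), a replicate block and leaving out each library. Positions and exon lengths are from GENCODE mouse M21 on GRCm38, with the identifier's version the same for 33 of the 35 members, and promoters are from RefSeq (GRCm38.p6). Counting error is small for the 35 members, which had 319 or more counts in every library, and the 2 mice per diet limit precision. It is larger for genes on few counts, such as Ifnb1, Ly6d and Siglech. The labels name no molecular identifiers.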

Additional observations from a re-analysis of the deposited data

How the results depend on the processing

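Members called higher and lower, 1 and 0 in the reported fit, were 1 and 1 with upper-quartile scaling, 3 and 2 with no filter, 6 and 1 by DESeq2, and 0 and 0 by limma-voom. RLE scaling changed no call of a member. Over all genes 480 were called higher and 1457 lower, against 1552 and 2231 with no filter and 1080 higher by DESeq2. With the replicate block, members called were 4 and 2, adding Ifit1, Ifit2, Ifit3, Oasl1 and Ifi205. Deviations of same-numbered mice correlated at -0.19 over 10312 genes. With 2 mice per diet this cannot show whether the numbers pair the mice. With crossed pairing, an alternative chosen after seeing the data, 2 members and 909 genes were called higher. Leaving out 1 library gave 0 to 5 members called higher and 0 to 3 lower, and 71 to 1934 genes higher and 300 to 2534 lower over all genes. The cause was not tested, beyond fewer libraries and other sets of genes tested.

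Of the 35 members 33 kept their sign in every fit of all libraries. With upper-quartile scaling, limma-voom, the block and crossed pairing, Oasl2 turned to -0.0116, -0.0060, -0.0055 and -0.0054, and Irf7 to -0.0162, -0.0171, -0.0165 and -0.0164. Trim30a turned to 0.0285 with no filter. Without 1 library, log2 fold changes that turned sign ran from -0.0177 to 0.45 (Oas2), -0.31 to 0.32 (Oasl2), -0.81 to 0.0950 (Oas3), -0.18 to 0.34 (Dhx58), -0.23 to 0.41 (Ifih1), -0.56 to 0.21 (Zbp1), -0.12 to 0.70 (Herc6) and -0.31 to 0.49 (Isg15). Others ran from -0.28 to 0.35 (Ifi204), -0.25 to 0.46 (Cmpk2), -0.42 to 0.0887 (Stat2), -0.51 to 0.38 (Trim30a), -1.18 to 0.28 (Isg20), -0.36 to 0.34 (Irf7) and -0.61 to 0.32 (Cxcl10).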

Other observations

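Relatives of the 35 genes from the wider list shared the pattern between the high-fat-diet mice. The PYHIN genes Ifi203, Ifi208, Ifi209 and Ifi213 had 201, 38.2, 155 and 100.4 CPM in high-fat-diet mouse 1, against 105, 18.3, 89.7 and 53.6 CPM in high-fat-diet mouse 2, and none was called between the diets by edgeR (adjusted p from 0.218 to 0.906), by DESeq2 or by limma-voom. Ifi207, another gene of that family, had 282 and 195 CPM on the high-fat diet, against 317 and 420.01 CPM on the control diet (adjusted p = 0.137). Slfn4, a Schlafen gene of myeloid cells, had 57.9 and 31 CPM in the high-fat-diet against 162 and 92.8 CPM in the control-diet libraries (log2 fold change -1.52, SE 0.37, edgeR adjusted p = 0.0539, DESeq2 adjusted p = 0.00024), while Slfn9 had 148 and 82.5 against 60.4 and 78.2 CPM (0.74, adjusted p = 0.152). These genes were named after their values were seen.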
